A study of Mus musculus with 8 samples.

Results

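RNA-seq of in vitro differentiated Th17 cells was used to follow 9 genes that direct or restrain the other fates open to a helper T cell: *Tbx21*, *Gata3*, *Bcl6*, *Prdm1*, *Eomes*, *Hlx*, *Zbtb7b*, *Id2* and *Id3*. They were taken by gene symbol from 13704 genes with at least 1 read in either library. Of the 9 genes, 8 were listed and also had the 10 reads over both libraries required for a comparison, and *Eomes* had no read in either. Naive CD4+ T cells (CD4+CD25-CD62Lhi CD44low) of C57BL/6 background were sorted from spleens and lymph nodes, stimulated with anti-CD3 and anti-CD28, and cultured with IL-6 (20 ng/ml) and a low dose of TGF-β (0.5 ng/ml) for 3 days before another stimulation with anti-CD3. One library came from wild type (WT) mice and 1 from TRIM28fl/flxCD4cre mice (*Trim28*-/-, here KO), in which Cre driven by the *Cd4* promoter removes *Trim28* in T cells already during their development in the thymus. Sources used here do not state the age of the mice, how many were pooled, or whether the WT mice carried Cre. With 1 library per genotype no difference below has a replicate check, and no p-value is given.

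An activated CD4+ T cell settles into an effector lineage when a few transcription factors come to dominate and switch the others off. T-bet, the product of *Tbx21*, drives Th1 cells with the homeobox factor encoded by *Hlx* as a partner; EOMES is its close relative in cytotoxic lymphocytes; GATA-3 drives Th2 cells; and BCL6 drives follicular helper (Tfh) cells while Blimp-1, encoded by *Prdm1*, opposes it. ThPOK, the product of *Zbtb7b*, holds T cells in the CD4+ helper lineage against the cytotoxic programme, and the small proteins ID2 and ID3, which cannot bind DNA themselves, capture the E proteins that do.

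*Bcl6* was the member whose higher level in the KO library was furthest beyond counting error, and *Hlx* the only member that passed a 2-fold limit. Their upstream sequences are therefore shown, as the 250 bases before annotated RefSeq starts on GRCm38 (minus strand, written 5′ to 3′). IL-6, the cytokine of this culture, signals through STAT3, and *Bcl6* is a textbook STAT3 target, so capitals mark every match to TTCNNNGAA, the palindrome that STAT proteins bind, which reads the same on both strands. The first *Bcl6* window, chr16:23981284-23981533, lies in the first intron of the curated transcript that starts further upstream and precedes the start of the other curated transcript. The second, chr16:23988853-23989102, precedes the start further upstream. The *Hlx* window is chr1:184732494-184732743.
Bcl6 (intronic start): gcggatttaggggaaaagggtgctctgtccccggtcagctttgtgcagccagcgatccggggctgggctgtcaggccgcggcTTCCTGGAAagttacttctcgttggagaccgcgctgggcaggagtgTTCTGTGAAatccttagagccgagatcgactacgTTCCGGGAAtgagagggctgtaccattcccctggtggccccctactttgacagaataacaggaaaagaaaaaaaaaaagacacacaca
Bcl6 (upstream start): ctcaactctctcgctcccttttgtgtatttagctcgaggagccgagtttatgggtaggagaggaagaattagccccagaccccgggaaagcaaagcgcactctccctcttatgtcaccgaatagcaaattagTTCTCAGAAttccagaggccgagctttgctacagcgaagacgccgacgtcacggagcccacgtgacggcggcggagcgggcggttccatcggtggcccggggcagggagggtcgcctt
Hlx: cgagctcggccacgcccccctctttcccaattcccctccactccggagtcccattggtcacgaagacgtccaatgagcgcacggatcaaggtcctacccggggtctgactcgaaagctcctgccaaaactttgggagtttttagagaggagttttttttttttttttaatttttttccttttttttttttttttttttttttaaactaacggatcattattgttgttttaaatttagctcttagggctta

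The intronic *Bcl6* window held 3 matches, beginning 168, 122 and 88 bases before the start, and the upstream window held 1, beginning 118 bases before it. No other member's window held a match, so that 2 of the 11 windows of the 9 genes had at least 1. Over all 32851 annotated windows of the same length, 7.02% held at least 1 match and 9 windows held 3 or more. The *Hlx* window held no match to TTCNNNGAA and none to CANNTG, the E-box that E proteins bind, which 66.2% of all windows held. CANNTG was also absent from the intronic *Bcl6* window and from those of *Gata3*, *Eomes* and *Id3*, so this is not particular to *Hlx*. A match is a description of the letters and not of binding, which was not analysed here.

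The WT library held 6.65 M uniquely assigned reads and the KO library 6.19 M (M, 1000000 reads), and 3 reads, the smallest level taken as shown, were 0.451 and 0.485 CPM (reads per 1000000 reads of the library). *Trim28* fell from 674 CPM (WT) to 29.1 CPM (KO). The Th17 cytokine genes *Il17a* and *Il17f* fell from 2226 to 381 reads and from 3143 to 345, and of 8 tested Th17 markers 5 were called lower, while of 10 T cell markers 0 were called. *Cd4*, which marks helper T cells, had 7904 and 6598 reads, and *Xist* was listed in neither library while *Ddx3y*, on the Y chromosome, had 730 and 456. A comparison required at least 10 reads in all, which 10881 genes had, and it called 662 of them lower and 302 of them higher in the KO library. A gene was called when its reads, scaled to the library totals, differed at least 2-fold and the exact (Clopper-Pearson) 95% interval of the log2 fold change excluded 0. These intervals cover counting error only. Without molecular identifiers the reads cannot be taken for separate molecules, and neither the spread between cultures nor the number of genes is allowed for. Longer transcripts tended to lower fold changes (Spearman's rho of -0.37 over 10792 genes, which are not independent replicates), so values after a correction for length are given where they matter.

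*Zbtb7b* had by far the most reads of the 9 genes, 2972 (WT) and 2228 (KO), which are 447 and 360 CPM. *Id2* followed with 1395 and 1056 reads, or 210 and 171 CPM. *Id3* had 378 and 338 reads, or 56.8 and 54.6 CPM. These 3 genes were well above the floor in both libraries, and each had a lower CPM in the KO library, by a small margin beside their levels. *Bcl6* had 309 and 414 reads, or 46.5 and 66.9 CPM, and was the only one of the 4 best covered members with more reads in the smaller KO library. In these bulk libraries fewer cells of a type and less RNA per cell cannot be told apart, here and in all values that follow. The master regulators of Th2 and Th1 cells were sparse, with 75 and 100 reads of *Gata3* (11.3 and 16.2 CPM) and 62 and 79 reads of *Tbx21* (9.32 and 12.8 CPM). *Hlx* had 17 (WT) and 4 (KO) reads, 2.56 and 0.647 CPM, so that its KO level was close to the floor. *Prdm1* was near the floor in both, with 7 and 4 reads (1.05 and 0.647 CPM). *Eomes* had 0 reads in both libraries, below the floor of 3 reads. The exact Poisson 95% upper limits were 0.555 CPM (WT) and 0.596 CPM (KO).

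**Figure D1:**
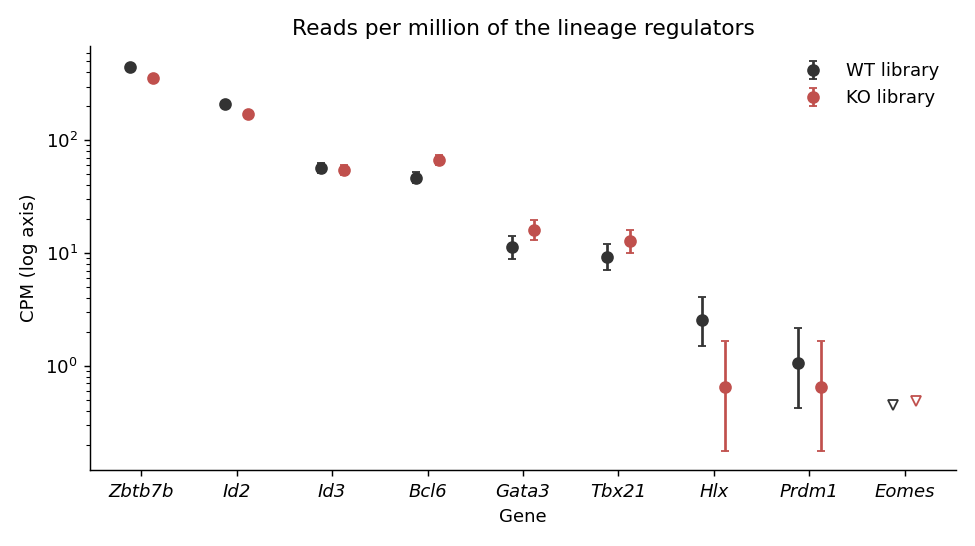
Levels in CPM (log axis) of the 9 lineage regulators in the WT (dark) and KO (red) libraries; bars are exact Poisson 95% intervals of the count and open triangles mark 3 reads for *Eomes*, which had none. *Zbtb7b* and *Id2* lie highest in both libraries, and the WT and KO points separate for *Zbtb7b*, *Id2* and *Bcl6* but overlap in these intervals for *Id3*, *Gata3*, *Tbx21*, *Hlx* and *Prdm1*.

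Levels can be set against each other only per length, as RPKM (reads per kilobase of the longest annotated transcript and 1000000 reads). In the WT library *Id2* stood at 107 RPKM (exact Poisson 95% interval 101 to 112) and *Zbtb7b* at 103 (99.5 to 107), 2 neighbours that did not differ beyond counting error. They stood at percentiles 95.8 and 95.6 of the 13561 genes with reads and a known length. *Id3* came next at 44.5 RPKM (40.1 to 49.2), and *Bcl6* at 11.8 RPKM (10.5 to 13.2). *Tbx21* at 3.75 RPKM (2.87 to 4.80) and *Gata3* at 3.51 RPKM (2.76 to 4.40) did not differ beyond counting error and stood at percentiles 48.3 and 47.5, in the middle of all genes. *Hlx* was at 1.12 RPKM (0.654 to 1.80) and *Prdm1* at 0.199 RPKM (0.0801 to 0.411), percentile 17.4. The order was the same in the KO library, where *Hlx* (0.284 RPKM, 0.0774 to 0.727) and *Prdm1* (0.122 RPKM, 0.0334 to 0.314) no longer differed beyond counting error. *Bcl6* moved from percentile 65.6 to percentile 72.5. The place of *Id2* depends on the transcript chosen: with the longest curated RefSeq transcript its level in the WT library was 165 RPKM and that of *Id3* 59.6 RPKM, while *Zbtb7b* stayed at 103 RPKM.

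**Figure D2:**
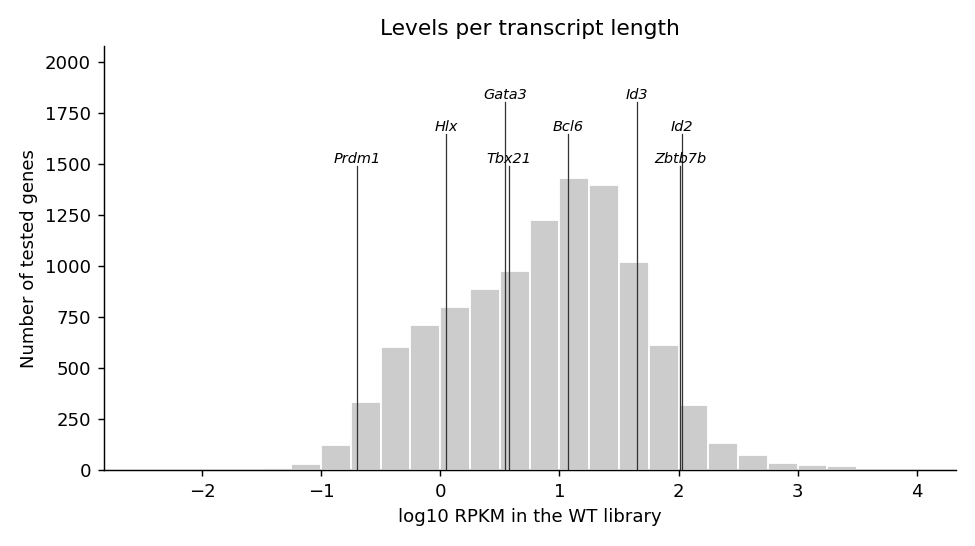
Histogram of log10 RPKM in the WT library over the tested genes with reads in it (number of genes on the vertical axis), with vertical lines at the 8 lineage regulators that had reads. *Id2* and *Zbtb7b* lie on the upper flank at about the same level, *Bcl6* near the peak, and *Prdm1* on the lower flank at 0.199 RPKM.

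The low values carry a limit of the counting. The deposited numbers are uniquely assigned reads, and some genes that most cells use were listed at 0 or close to it: *Ctbp1* and *Ehmt2*, with 5 and 4 curated RefSeq transcripts, were in neither library. Among the members, *Gata3* and *Zbtb7b* have 4 such transcripts each, *Bcl6* and *Eomes* 2, and *Tbx21*, *Prdm1*, *Hlx*, *Id2* and *Id3* 1 each. Whether the number of transcripts bears on these levels was not tested.

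Of the 8 members tested, 1 was called lower and 0 higher, where 6.08% of all tested genes were called lower and 2.78% higher. Intervals lay wholly below 0 for 3 members (*Hlx*, *Zbtb7b* and *Id2*) and wholly above it for 2 (*Bcl6* and *Gata3*), where this was so for 25.0% and 23.5% of all tested genes. A single gene is already 12.5% of the 8 members, so nothing about them as a group can be read from this count. The median log2 fold change of the 8 members was -0.18, that of all tested genes -0.02.

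Among the regulators of Tfh cells, *Bcl6* (chromosome 16 from 23965050 to 23988866, 10 exons) was 1.44-fold higher in KO cells, with a log2 fold change of 0.53 and an interval from 0.31 to 0.74. It stayed below the 2-fold limit and above counting error, and after the correction for transcript length the value was 0.60 (0.38 to 0.82). The reads of its opponent *Prdm1* (chromosome 10 from 44437174 to 44528558, 7 exons) were too few for a direction, with a log2 fold change of -0.64 and an interval from -2.92 to 1.27. Within a library, where the scaling to totals has no part, there were 44.1 (WT) and 103.5 (KO) *Bcl6* reads per *Prdm1* read. The KO ratio was 2.34 times the WT ratio by the conditional estimate, with an exact 95% interval from 0.589 to 11.0 that includes 1, so that a shift of this balance was not detectable at this depth.

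Among the regulators of Th1 cells, *Hlx* (chromosome 1 from 184727143 to 184732493, 4 exons) fell 3.64-fold, a log2 fold change of -1.86 with an interval from -4.01 to -0.37. The width of this interval comes from the 4 reads in the KO library, and at its upper end the difference is below 2-fold. Of the 2263 tested genes with 10 to 50 reads over both libraries, a range chosen after the values were seen, 13.0% were called lower in the same way. The call was lost in edgeR's exact test once a coefficient of variation of 0.1 between replicates was assumed. *Tbx21* (chromosome 11 from 97098007 to 97115331, 6 exons) was not called, with a log2 fold change of 0.45 and an interval from -0.04 to 0.96 that includes 0. The library held 3.65 *Tbx21* reads per *Hlx* read in WT and 19.8 in KO, a ratio 5.36 times as high by the conditional estimate (exact 95% interval 1.64 to 23.0). The 2 partners of the Th1 programme differed from each other in their change by more than counting error. This difference rests on the same 4 KO reads of *Hlx* as its call and is not a separate result. *Eomes* (chromosome 9 from 118478186 to 118486132, 6 exons), the relative of *Tbx21*, gave no ratio because it had no reads.

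*Gata3* (chromosome 2 from 9857078 to 9887953, 6 exons), the Th2 regulator, had a log2 fold change of 0.52 with an interval from 0.07 to 0.97. This is 1.43 times the WT level, beyond counting error but with a lower bound close to 0. *Tbx21* and *Gata3*, which restrain each other, stood at 0.827 (WT) and 0.79 (KO) *Tbx21* reads per *Gata3* read. The conditional ratio of the ratios was 0.956 with an exact 95% interval from 0.596 to 1.53 that includes 1. RefSeq places 2 long non-coding RNA genes over *Gata3*, and neither had a read in either library.

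*Zbtb7b* (chromosome 3 from 89377644 to 89393673, 4 exons in its longest transcript) was 1.24-fold lower in KO cells, with a log2 fold change of -0.31 and an interval from -0.39 to -0.23. With 5200 reads over both libraries this difference was well beyond counting error, although it was small, and it came to -0.19 (-0.27 to -0.11) after the length correction. The uncorrected value stood at percentile 29.9 of all tested genes, between their quartiles of -0.41 and 0.30. An exon of *Gm15417*, a long non-coding RNA of the opposite strand (chromosome 3 from 89391864 to 89398779), overlaps an alternative first exon of *Zbtb7b*. It had 17 reads in each library, and since sources used here do not state whether strand was used in counting, reads in the overlap cannot be told apart.

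*Id2* (chromosome 12 from 25093799 to 25096092, 3 exons) was 1.23-fold lower in KO cells, with a log2 fold change of -0.30 and an interval from -0.41 to -0.18. This value stood at percentile 30.7 of all tested genes. *Id3* (chromosome 4 from 136143822 to 136145392, 3 exons) had a log2 fold change of -0.06 with an interval from -0.27 to 0.16 that includes 0. Both are short genes, and the length correction lowered their values to -0.46 (-0.58 to -0.34) and -0.29 (-0.51 to -0.07), so that the interval of *Id3* then lay below 0 as well. There were 3.69 (WT) and 3.12 (KO) *Id2* reads per *Id3* read. The conditional ratio of 0.847 had an exact interval from 0.714 to 1.0 whose upper end reached 1, so the 2 genes could not be shown to differ in their change. Their partners, the E proteins, could not be read: *Tcf3*, *Tcf4* and *Tcf12*, named after their values were seen, had 3, 12 and 1 WT reads and 2, 8 and 0 KO reads, with 16, 6 and 5 curated transcripts. *Id1*, another member of the family, had 19 and 9 reads, and *Id4* was not listed. Of the 7 E protein and ID genes, 4 were tested and 0 were called in either direction. Over all tested genes 6.08% were called lower and 2.78% higher, so a count of 0 among so few genes cannot be read.

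**Figure D3:**
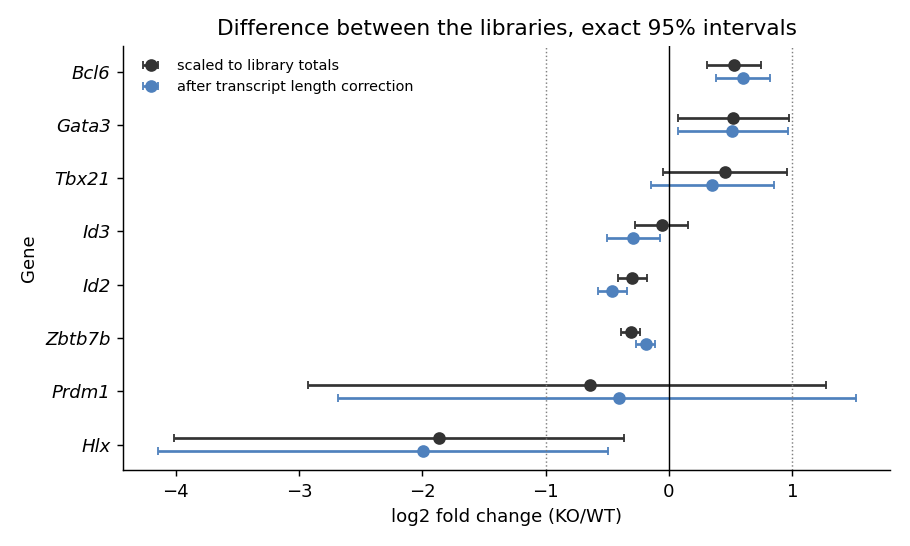
Log2 fold changes (KO/WT) of the 8 lineage regulators with reads, as scaled to library totals (dark) and after the correction for transcript length (blue); bars are exact 95% intervals of the reads and dotted lines mark the 2-fold limits. *Bcl6* and *Gata3* lie to the right of 0 and *Zbtb7b*, *Id2* and *Hlx* to the left in both versions, and only *Hlx* passes a 2-fold limit, with one of the widest intervals.

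The genes of the lineages that these factors direct were read from lists written from general knowledge. Of 25 Th1 genes, 21 were tested, 3 were called lower and 2 higher (14.3% and 9.52%, beside the shares over all genes given above), with a median log2 fold change of -0.20. *Stat4*, which carries the IL-12 signal, fell from 521 to 239 reads (log2 fold change -1.02), just past the limit. The kinase gene *Txk* fell from 15 to 4 reads. After the length correction 1 of the 3 lower calls was left, and with an assumed variation of 0.2 there were 0, while *Cxcr3* and *Nkg7* kept theirs in both. *Cxcr3*, a chemokine receptor gene that T-bet activates in Th1 cells, rose from 69 to 197 reads (log2 fold change 1.61, interval 1.22 to 2.04). *Nkg7*, a gene of cytotoxic granules, had 0 WT reads and 42 KO reads. It was 15.1-fold higher when 3 reads are taken for the WT library. The exact interval of its log2 fold change began at 3.55. *Ifng*, the defining cytokine of Th1 cells, was listed in neither library. *Bhlhe40*, the Th1 gene with the most reads (2697 and 2919), was not called.

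Of 24 Th2 genes, 13 were tested, 3 were called lower (23.1%, beside 6.08% of all tested genes) and 0 higher (beside 2.78%), with a median log2 fold change of -0.10. With 10 reads required in each library 1 lower call was left. The 3 genes are not particular to Th2 cells and are also made by Th17 cells or other T cells. *Maf*, a factor that activates *Il4* and *Il21*, fell from 6699 to 1431 reads (log2 fold change -2.12). *Il10*, an inhibitory cytokine gene, had 26 and 0 reads and was 8.06-fold lower with 3 reads taken for the KO library. The exact interval of its log2 fold change ended at -2.61. *Il24* fell from 17 to 4 reads. *Junb*, with the most reads, had 6920 and 6907 and was not called. The Th2 cytokine genes *Il4*, *Il5* and *Il13* had at most 2 reads in either library.

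Of 23 Tfh genes, 21 were tested and only *Il21*, the cytokine of Tfh and Th17 cells, was called, falling from 3537 to 1233 reads (log2 fold change -1.42). That is 4.76% called lower, beside 6.08% of all tested genes, and 0 higher, beside 2.78%. Tfh genes went both ways: intervals lay wholly below 0 for 11 of the 21 and wholly above it for 5. Over all tested genes these shares were 25.0% and 23.5%. Among the 5 were *Cxcr5* (log2 fold change 0.56), *Pdcd1* (0.44) and *Cd200* (0.73), named after their values were seen. The median log2 fold change was -0.34, and -0.22 after the length correction, beside the -0.02 of all genes. *Tcf7*, the factor TCF-1 and the Tfh gene with the most reads, had 9975 and 6363 reads (log2 fold change -0.54) and was not called.

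Of 20 genes listed for the cytotoxic programme, 12 were tested, 0 were called lower and 4 higher (33.3%, beside 2.78% of all tested genes). Their median log2 fold change was 0.62 and came to 0.32 after the length correction. Whether ThPOK acts on these genes was not tested. An assumed variation of 0.2 left 1 of the 4 calls, and a minimum of 10 reads in each library left 2. The 4 genes were *Nkg7*, *Prf1* (the pore protein perforin, from 22 to 48 reads), *Xcl1* (a chemokine, from 9 to 36) and *Ccl3* (a chemokine, from 57 to 115). *Ccl3* had the highest CPM of the 4, at 8.57 (WT) and 18.6 (KO), and lost its call after the length correction (log2 fold change 0.80), which left 3. *Cd8b1*, a chain of the CD8 coreceptor, went the other way (52 and 27 reads), its log2 fold change being -0.83 (-1.57 to -0.14), which passed the 2-fold limit after the length correction (-1.04). *Cd8a* had 1 and 2 reads, and *Runx3*, the factor of the cytotoxic lineage, was at -0.01 on the log2 scale, interval -0.12 to 0.10 (1447 and 1339 reads). Of the 12 tested genes, 6 had intervals wholly above 0 and 2 wholly below it, *Cd8b1* and *Ctsw* (986 and 824 reads). The granzyme genes *Gzmb* (32 and 37 reads) and *Gzma* (4 and 6) had intervals that include 0. In neither library were 6 of the 20 genes listed. Defining markers of NK cells (*Ncr1*, *Klrb1c*, *Klra4* and *Klra8*) had no reads in either library. The 8 NK and ILC markers, of which *Eomes* is one, summed to 13 WT reads (1.95 CPM) and 25 KO reads (4.04 CPM), of which *Klri2* rose from 3 to 13 reads, and 5 of the 8 had no read. *Klrd1*, listed with the cytotoxic genes and not among these 8 markers, alone had more, with 58 and 70 reads (8.72 and 11.3 CPM). The part of NK cells and ILCs in the cytotoxic genes was not tested.

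**Figure D4:**
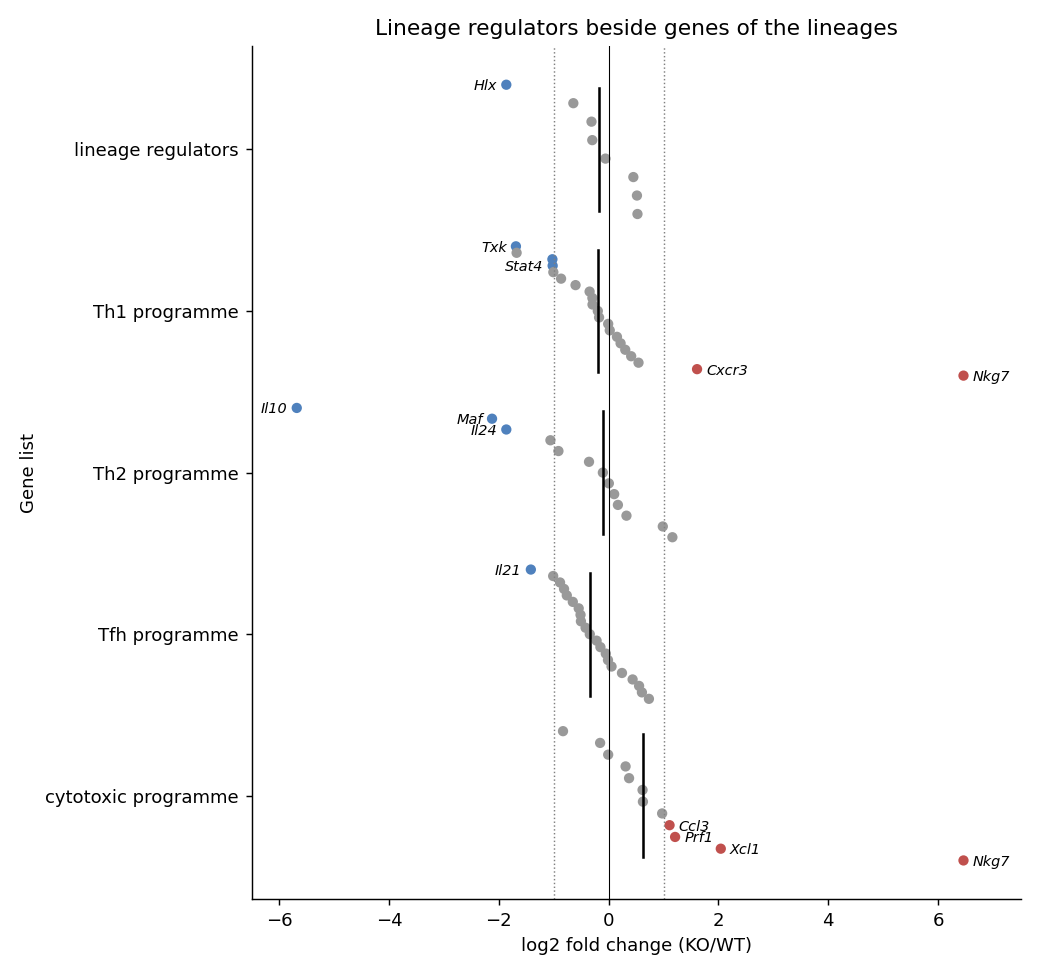
Log2 fold changes (KO/WT) of the tested genes among the lineage regulators and 4 lists, 1 point per gene, with short black bars at the medians; blue and red points were called lower and higher (not all are labelled), dotted lines mark the 2-fold limits, and *Nkg7* and *Il10*, with 0 reads in 1 library, sit where the added 0.5 puts them. The regulators other than *Hlx* lie between the limits, and the cytotoxic list is the one with its median well to the right of 0, at 0.62.

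Regulatory T cells, B cells and myeloid cells also use several of the 9 genes. The 4 Treg markers summed to 1922 (WT) and 1505 CPM (KO), nearly all from *Il2ra*, which activated T cells in general express (12320 and 8925 reads). *Foxp3*, the defining factor of Treg cells, had 1 and 8 reads, too few for a comparison, with a counting interval of the log2 fold change from 0.21 to 8.58. Of the other 3 markers, all tested, 0 were called, beside 6.08% of all tested genes called lower and 2.78% higher. The 8 B-cell markers summed to 113 WT reads (17.0 CPM) and 81 KO reads (13.1 CPM), and *Cd22* was not listed. They went both ways: *Cd79b* fell from 15 to 2 reads and was called lower. *Ebf1* rose from 19 to 34 (interval 0.09 to 1.84) and was not called. The 13 myeloid and dendritic markers summed to 7.22 and 7.11 CPM, with 6 of them, among them *Lyz2*, *Csf1r*, *Adgre1* and *Cebpa*, at 0 in both. The dendritic cell gene *Zbtb46* had 0 and 7 reads, with a counting interval above 0 but too few reads for a comparison, and *Flt3* had 11 and 4 with an interval that includes 0. The B-cell and myeloid sums were far below the CPM of *Zbtb7b* and *Id2*, but the B-cell sum was above the CPM of *Tbx21* in both libraries, and both sums were above those of *Hlx* and *Prdm1*. These sums run over several genes and are not per length, so they do not rank levels. The part of such cells in the levels of the sparse members was not tested.

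The cofactors and relatives of the 9 regulators mostly stayed within 2-fold. Of 23 corepressor genes used by BCL6, Blimp-1 or ThPOK, 19 were tested. There was 1 lower call (5.26%, beside 6.08% of all tested genes) and 0 higher calls (beside 2.78%). The gene, *Tle3*, was at the very limit (136 and 63 reads), and TMM scaling and the length correction each ended its call. The median of the 19 corepressor genes, -0.43, came to -0.11 after the length correction. *Nacc1*, with the most reads of this list, had 2920 and 2726 reads and was not called (log2 fold change 0.0054, interval -0.07 to 0.08). Of 37 family relatives, 14 were not listed and 13 had enough reads. There were 2 lower calls (15.4%, beside 6.08% of all tested genes) and 0 higher calls (beside 2.78%). *Prdm10*, a zinc finger relative of *Prdm1*, fell from 164 to 65 reads, a call that the length correction ended (log2 fold change from -1.22 to -0.87). *Zbtb7a*, the paralog of *Zbtb7b*, was at -0.09 on the log2 scale (1660 and 1449 reads).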

How the data were processed

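One RNA-seq library per genotype was analysed, of 8 samples in the series; the 6 ChIP-seq samples were not analysed here. The authors mapped reads to mm10 with SOAP2 and deposited, for each gene, the raw count of reads assigned to it alone; the labels also list HTSeq and Bowtie without a role. Annotation, strandedness and the handling of reads shared between genes are not given in the sources used here. A gene absent from a deposited table was taken as 0.

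The 9 genes and all gene lists were chosen with earlier results of these data known. Counts were scaled to library totals, and the log2 of their ratio (KO/WT) was taken after adding 0.5, for genes with a total of at least 10 reads. Exact 95% intervals came from the share of a gene's reads in the KO library (SciPy 1.17.1, Python 3.11.15). Genes at least 2-fold different with an interval excluding 0 were called. The edgeR quasi-likelihood test could not be fitted, since 1 library per genotype leaves no residual degrees of freedom. RPKM used the longest GENCODE transcript (GRCm38), and gene positions and upstream windows came from RefSeq (GRCm38.p6). Symbols of 13050 genes matched directly, 602 by an older symbol and 52 not at all. Transcript length was corrected by a loess curve (span 0.3, statsmodels 0.14.6) of log2 fold change on length. The calling script was tested on simulated data in which only genes with more reads than *Hlx* were changed. Detection of changes in genes as sparse as *Hlx* was therefore not covered.

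Alternatives were 15 changes of scaling (TMM, edgeR 4.0.16, or the size factors that DESeq2 1.42.0 estimates, both in R 4.3.3), pseudocount, filters, length and GC correction, chromosomes and call rules, plus 1 added after the data were seen. Named were the 9 genes, up to 3 called genes per list and direction with the most reads, the most abundant gene of each list, overlapping genes, checks and cell type markers. The signature cytokine genes *Ifng*, *Il4*, *Il5* and *Il13*, *Ctbp1*, *Ehmt2*, the E protein genes and some marker and programme genes were added after their values were seen. Some genes that this rule would name are not reported here.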

Additional observations from a re-analysis of the deposited data

How the results depend on the processing

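No paired analysis was possible because each genotype had 1 library, and for the same reason no library could be left out. No fold change of a member changed sign under any setting that gave it a value, where settings that alter only the call rule leave fold changes as they are. Medians of the members, of the Th2 list and of the family relatives did change sign. The fold changes of *Bcl6* (0.52 to 0.60) and *Gata3* (0.49 to 0.55) moved little, while *Hlx* ranged from -1.99 to -1.23. *Hlx* lost its call under edgeR's exact test when the variation between replicates was assumed to be 0.1, 0.2 or 0.4 (log2 fold change -1.86 in each), which left 0 members called lower. With at least 10 reads in each library *Hlx* and *Prdm1* gave no value, 0 members were called and the members' median became 0.20, from -0.18. The cause of these shifts was not tested.

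Over all genes, 405 were called lower and 188 higher with at least 10 reads in each library, 131 and 65 under edgeR with variation 0.2, 9 and 7 with 0.4, and 1358 and 815 at a 1.5-fold limit. With at least 10 reads in each library, Th1 genes called higher came to 1, Th2 genes called lower to 1 with a median of 0.0049, cytotoxic genes called higher to 2, and family relatives called lower to 1 with a median of 0.10. Under edgeR, variation 0.1 left 1 family relative called lower. Variation 0.2 left 0 Th1 genes, corepressors and family relatives called lower and 1 cytotoxic gene called higher. Variation 0.4 left 0 Th1, Th2, Tfh, corepressor and family genes called lower, with 1 Th1 and 1 cytotoxic gene, *Nkg7*, called higher. At 1.5-fold, 5 Th1 genes, 5 Tfh genes, 1 cytotoxic gene and 6 corepressors were called lower, and 1 Th2 gene, 1 Tfh gene and 2 family relatives higher. The length correction left 1 Th1 gene and 0 corepressors called lower, called 1 cytotoxic gene lower, and gave medians of 0.32 (cytotoxic), -0.11 (corepressors) and 0.17 (family relatives). The GC correction left 1 Th1 gene called lower. Without the X and Y chromosomes 1 Th1 gene was called higher, and the corepressor median was -0.0873. With at least 1 read over both libraries the Th2 median was -0.51. TMM and DESeq2 size factors each called 1 Th2 gene higher and 0 corepressors lower, and upper-quartile scaling and a pseudocount of 5 also called 0 corepressors lower. With the longest RefSeq transcript, chosen after seeing the data, levels in the WT library were 9.79 RPKM for *Bcl6*, 165 for *Id2* and 59.6 for *Id3*.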
